A study of Zea mays with 303 samples.

Results

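EZ1 and HMGIY2 are the 2 chromatin genes described here, out of 17140 features counted in single cells of early meiotic maize anthers. They were chosen by name, with their levels in cells that carry CAB1, C2 or GAPC3 transcripts already known from an earlier pass over the same counts, so those levels are given as a description. All samples were single cells of the inbred line W23 bz2, grown in a greenhouse, taken from dissected anthers, fixed in Farmer's solution (ethanol and acetic acid), digested with wall-degrading enzymes and sorted. The cells formed 1 group, without treatment or mutant contrast, and no plant, anther or culture was named for any cell. They carried the indices of 4 library pools (6, 11, 28 and 29) of 55, 78, 79 and 91 cells, made with a modified CEL-Seq2 protocol that tags each cell's polyadenylated RNA with its own barcode.

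The symbol EZ1 was not found in the gene table at hand, which lists mez1, so its identity is read from the symbol in the counts. By that symbol EZ1 is an Enhancer of zeste gene, whose proteins are the catalytic subunit of Polycomb repressive complex 2, which methylates histone H3 at lysine 27 and keeps developmental genes silent. HMGIY2 encodes a protein of the HMG-I/Y (HMGA) family, small architectural proteins that bind the minor groove of AT-rich DNA through AT-hook motifs. FIE2, a WD40 protein, is a partner of Enhancer of zeste proteins in the same complex. No sequence of either gene was at hand, so none is shown.

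A cell held a median of 1780 unique molecular identifiers (UMIs, one per captured transcript copy), and at most 9934, and the pools had medians of 2942, 2803, 1162 and 1746 UMIs for pools 6, 11, 28 and 29. Levels are given as CPM, the UMIs of a gene per 1000000 UMIs. At the median depth 1 UMI equals 562 CPM, so a cell with no UMI of a gene may still have expressed it. Cells of 1 group are not replicates, so differences are set against counting error only. The ranges in brackets are 95% limits from the counts themselves, by the exact Poisson method for CPM, the Clopper-Pearson method for shares and the conditional binomial method for ratios. Few markers that would name the cell types were found, and they were sought by symbol alone. Of the 17140 features, 16854 carried a Zm00001d identifier in place of a symbol. A marker not found may thus still be counted under such an identifier. Of the marker names drawn up for meiocytes, 1 of 13 was found (RAD51B, with 6 UMIs), and for the tapetum 0 of 8. For the endothecium 3 of 3 were found (CAB1, PSAH and RCA1, all photosynthesis genes). For the epidermis 1 of 4 was found and for vascular cells 0 of 3, so no cell is given a type.

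EZ1 was a sparse transcript and HMGIY2 an abundant one. EZ1 had 54 UMIs in all, at 67.5 CPM (50.7 to 88.1), more than 83.2% of the features. HMGIY2 had 364 UMIs, at 454.9 CPM (409.4 to 504.1), more than 98.8% of the features. The 3-prime counting of CEL-Seq2 gives about 1 tag per transcript, so these levels are per transcript and not per length. EZ1 was seen in 39 cells, 12.9% of all (9.32% to 17.2%), and HMGIY2 in 45.5% (39.8% to 51.3%). The median cell had no UMI of either gene, and the highest cell reached 999 CPM of EZ1 and 7890 CPM of HMGIY2. In the cells that had a UMI of it, EZ1 ran from 106.8 CPM through a median of 313 CPM to 999 CPM, and HMGIY2 from 151.5 CPM through 739 CPM to 7890 CPM.

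Cells in which EZ1 was seen mostly had a single UMI of it. Of the 39 cells, 29 held 1 UMI, 6 held 2, 3 held 3 and 1 held 4. HMGIY2 was counted once in 64 cells and at least 5 times in 22 cells. The 7 cells with 9 to 16 HMGIY2 UMIs held 82 of them, 22.5% of the gene's total. Their depths ran from 1379 to 6850 UMIs, and pools 6, 11, 28 and 29 held 3, 1, 2 and 1 of them. None of these 7 cells had 3 GAPC3 UMIs, and 1 of them had a UMI of EZ1.

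HMGIY2 was seen in fewer cells than depth alone gives, and EZ1 was not beyond counting error. If EZ1 had been spread over cells in proportion to their depth, 46.7 cells would have shown a UMI, against the 39 seen. For HMGIY2 such a spread gave 173.2 cells, above the upper limit of the share seen. Features of like abundance, in the ranges of UMIs given below, also had median numbers of cells under these 2 values. A shortfall was thus not particular to EZ1 and HMGIY2. The 10 cells richest in EZ1 held 46.3% of its UMIs. Among the 1498 features with 43.2 to 67.5 UMIs the median of that share was 35.1%, and 9.41% of them exceeded EZ1. For HMGIY2 the share was 27.7%, against a median of 23.1% over the features with 291.2 to 455 UMIs, of which 36.4% exceeded it.

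EZ1 had a similar level in 3 of the pools and a lower one in the fourth. Pool 6 had 87.8 CPM of EZ1 (51.1 to 140.5), pool 11 had 79.3 CPM (49.1 to 121.2), pool 28 had 91.9 CPM (45.9 to 164.5) and pool 29 had 22.5 CPM (7.32 to 52.6). Pool 29 held 5 EZ1 UMIs in 5 cells. The ratio of pool 6 to pool 29 was 3.89 (1.38 to 13.5), that of pool 11 to pool 29 was 3.52 (1.29 to 11.9) and that of pool 28 to pool 29 was 4.08 (1.31 to 15.0). The ratios among pools 6, 11 and 28 all had intervals that included 1. The labels say nothing of plants, days or sorter by pool, so these cannot be told apart from the pool. In sums over cells such as these, fewer cells with a transcript and less of it per cell cannot be told apart either.

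HMGIY2 followed another order of pools. Pool 6 had 485.2 CPM of HMGIY2 (392.1 to 593.8), pool 11 had 286.9 CPM (226.1 to 359.1), pool 28 had 726.9 CPM (582.2 to 896.6) and pool 29 had 482.2 CPM (395.2 to 582.7). Pool 28 was highest and pool 11 lowest, and the ratio of pool 11 to pool 28 was 0.395 (0.286 to 0.543). Pools 6 and 29 did not differ beyond counting error, with a ratio of 1.01 (0.755 to 1.34). The order rested in part on few cells. Without the cells with at least 8 HMGIY2 UMIs, pool 6 stood at 287.4 CPM and pool 28 at 583.9 CPM. Pools 11 and 29 held 1 such cell each, with 10 and 9 HMGIY2 UMIs, and were not recomputed. The values above for pools 11 and 29 thus still include such a cell. HMGIY2 was also found in the 46 cells with fewer than 500 features detected, with 15 UMIs at 727.9 CPM (407.4 to 1201), where EZ1 had none. The exact upper limit for EZ1 there was 179.01 CPM, and 3 counts would be 145.6 CPM.

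**Figure D1:**
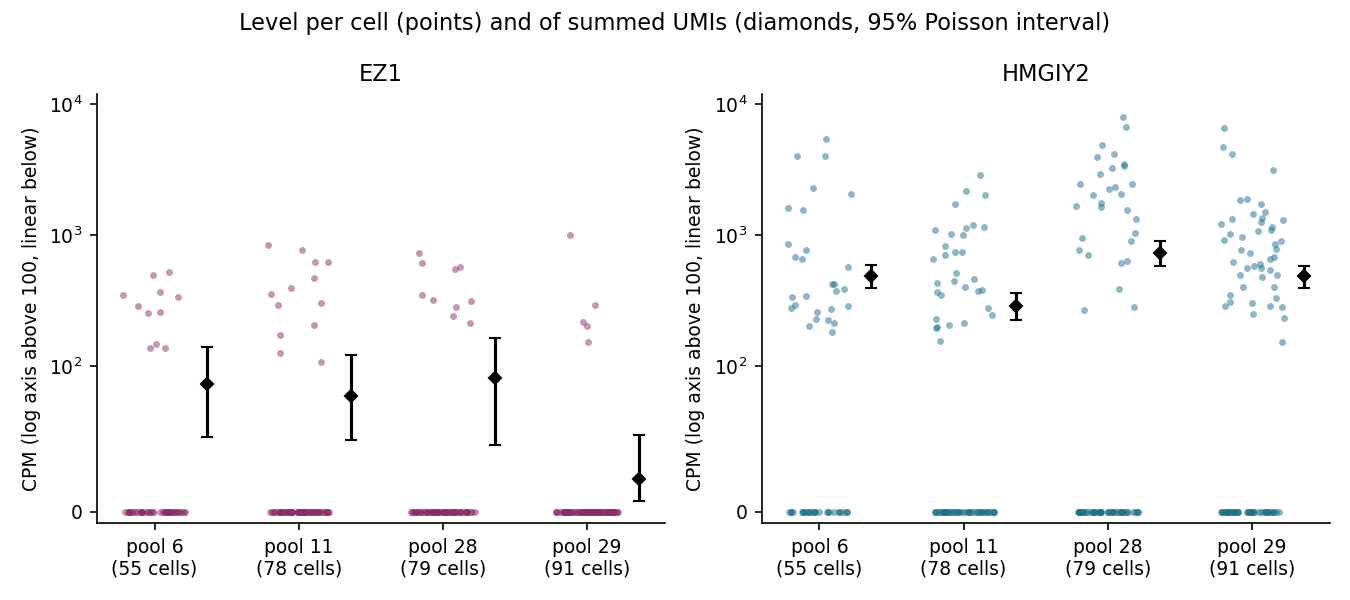
CPM of EZ1 (left) and HMGIY2 (right) in each cell (points, by library pool) and CPM of the summed UMIs of a pool with its exact 95% Poisson interval (diamonds); the vertical axis is logarithmic above 100 CPM and linear below. EZ1 is at 0 in most cells and lowest in pool 29 (22.5 CPM), whereas HMGIY2 is highest in pool 28 (726.9 CPM) and reaches 7890 CPM in a single cell.

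GAPC3, a cytosolic glyceraldehyde-3-phosphate dehydrogenase of glycolysis, was the class gene whose cells had the higher EZ1 level. In the 30 cells with at least 3 GAPC3 UMIs, EZ1 had 25 UMIs at 152.9 CPM (98.9 to 225.7), and in all other cells 29 UMIs at 45.6 CPM (30.5 to 65.4). The ratio was 3.36 (1.88 to 5.93), a log2 fold of 1.55 with 10 CPM added to both sides. The direction was the same in every pool, with EZ1 at 167.97 against 52.2 CPM for pool 6, 183.3 against 52.3 CPM for pool 11, 191.4 against 76.9 CPM for pool 28 and 59.2 against 15.9 CPM for pool 29. In pools 28 and 29 the interval of the ratio included 1, since the cells with at least 3 GAPC3 UMIs numbered 4 and 5 there. Of 3170 features with at least 50 UMIs, 11% were at least 2-fold higher in the GAPC3 cells, which EZ1 also was. Leaving out single cells gave log2 folds from 1.36 to 1.64.

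The excess of EZ1 lay in the cells richest in GAPC3. EZ1 stood at 45.9 CPM (28.1 to 70.9) in the 69.0% of cells with no GAPC3 UMI, at 44.7 CPM (20.5 to 84.9) in the 64 cells with 1 or 2, at 45.2 CPM (12.3 to 115.7) in the 18 cells with 3 to 5, and at 279.95 CPM (173.3 to 427.9) in the 12 cells with 6 or more. The limit of 6 was chosen after the values were seen. Of those 12 cells, 11 had an EZ1 UMI, and their 21 UMIs were 38.9% of all EZ1 counted, in cells that held 9.37% of all UMIs. The ratio to the cells with fewer GAPC3 UMIs was 6.15 (3.38 to 11.0). The 12 cells were 5 of pool 6, 4 of pool 11, 2 of pool 28 and 1 of pool 29.

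These cells were deep, with 2861 to 8944 UMIs, so detection was compared with other cells above the same minimum depth, though the 12 were still deeper, with a median of 6582.5 UMIs against 4542 UMIs. Among the 93 cells with at least 2861 UMIs and fewer than 6 GAPC3 UMIs, 18 had an EZ1 UMI, a share of 19.4% (11.9% to 28.9%), against 91.7% (61.5% to 99.8%) of the 12. EZ1 stood at 44.4 CPM (27.5 to 67.8) in the 93 cells. With every cell thinned to 1000 UMIs, and averaged over all draws, EZ1 was seen in 24.5% of the 12 cells and in 5.31% of the others. The 4 cells with at least 3 EZ1 UMIs were all among the 12. Of the 10 cells with at least 2 EZ1 UMIs, 5 had at least 3 GAPC3 UMIs. The highest EZ1 levels per cell also fell outside the 12, with 999 CPM from 1 UMI and 830 CPM from 2 UMIs in shallower cells that had no GAPC3. The 4 cells with at least 3 EZ1 UMIs held 37, 24, 17 and 6 GAPC3 UMIs and none of CAB1 or C2. The single cell of the 12 without EZ1 was a pool 6 cell with 7 GAPC3 UMIs and 38 UMIs of C2, at 2861 UMIs the shallowest of them.

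HMGIY2 went the other way in these cells. It had 8 UMIs at 106.6 CPM (46.0 to 210.1) in the 12 cells with 6 or more GAPC3 UMIs, against 356 UMIs at 490.9 CPM (441.3 to 544.7) in the others, a ratio of 0.217 (0.0931 to 0.433). Of the 12 cells, 5 had a UMI of HMGIY2, against 64 of the 93 cells above the same minimum depth. No cell among the 12 had more than 2 HMGIY2 UMIs. In pools 6, 11, 28 and 29 the 12 cells held 6, 0, 1 and 1 HMGIY2 UMIs, and the pools stood at 176.4, 0, 121.3 and 151.5 CPM, against 551.0, 318.4, 771.7 and 492.3 CPM in their other cells. The intervals of the 12 cells and the others did not overlap in pools 6 and 11 and did in pools 28 and 29, where the 12 included 2 cells and 1 cell.

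With the lower limit of 3 GAPC3 UMIs the difference in HMGIY2 was smaller and varied between pools. HMGIY2 stood at 244.6 CPM (174.7 to 333.1) in the 30 cells and at 508.9 CPM (455.0 to 567.5) in all others, a ratio of 0.481 (0.337 to 0.669) and a log2 fold of -1.03. The share of features at least 2-fold lower in the GAPC3 cells was 11.9%. In pool 6 it stood at 201.6 against 611.1 CPM and in pool 29 at 88.8 against 552.8 CPM, both lower beyond counting error. In pool 11, at 256.6 against 294.8 CPM, and in pool 28, at 701.7 against 730.7 CPM, the interval of the ratio included 1. Graded by GAPC3, HMGIY2 was at 576.5 CPM in cells with none, 362.8 CPM with 1 or 2 UMIs, 361.5 CPM with 3 to 5 and 106.6 CPM with 6 or more. When cells were thinned to 1000 UMIs and then classed, the log2 fold was -0.013. With cells classed before thinning, HMGIY2 was seen in 19.9% of the GAPC3 cells and 30.8% of the others, averaged over all draws. The log2 fold was -0.82 without pool 6, -0.76 without pool 29 and -0.68 without the cells with at least 8 HMGIY2 UMIs. Omitting single cells gave -1.26 to -0.95, so the 2-fold limit was not met throughout.

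**Figure D2:**
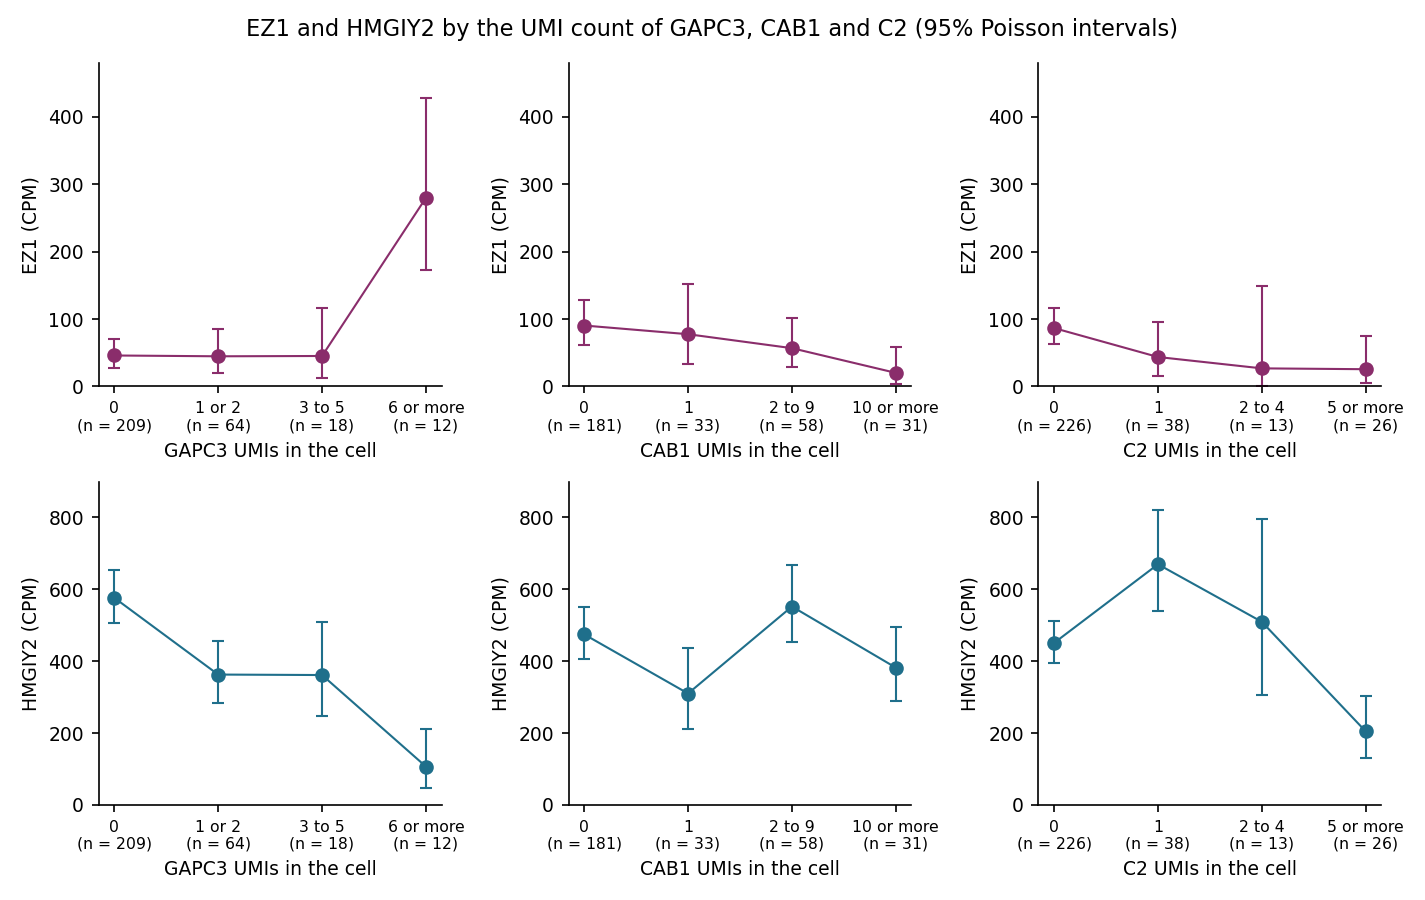
CPM of summed UMIs of EZ1 (top row) and HMGIY2 (bottom row) in cells grouped by their UMI count of GAPC3, CAB1 and C2, with exact 95% Poisson intervals and the number of cells under each group. EZ1 is near 45 CPM up to 5 GAPC3 UMIs and at 279.95 CPM from 6 on, where HMGIY2 is lowest at 106.6 CPM.

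CAB1 encodes a chlorophyll a/b-binding protein of the light-harvesting antenna and was seen in 40.3% of cells. EZ1 stood at 49.3 CPM (30.9 to 74.6) in these cells and at 90.4 CPM (61.8 to 127.6) in those without, a ratio of 0.545 (0.302 to 0.968) and a log2 fold of -0.76. In every pool on its own the interval of the ratio included 1. Pool 29 pointed the other way, with 4 UMIs against 1, at 27.1 against 13.5 CPM. Without the cells with at least 3 GAPC3 UMIs the log2 fold was -0.12. EZ1 was lowest where CAB1 was highest, with 3 UMIs at 20.1 CPM (4.15 to 58.7) in the 31 cells with 10 or more CAB1 UMIs. At a log2 fold of 1, the limit used for all features, 7.07% of features were higher and 4.07% lower in the CAB1 cells, and EZ1 reached neither. The median log2 fold of all features there was -0.29.

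HMGIY2 showed no difference with CAB1 over all pools and opposite ones within them. It stood at 439.2 CPM (379.9 to 505.2) with CAB1 and at 474.7 CPM (405.6 to 552.1) without, a ratio of 0.925 (0.749 to 1.14). In pool 6 the CAB1 cells were lower, at 297.6 against 601.0 CPM, with a ratio of 0.495 (0.292 to 0.808). In pool 11 they were higher, at 360.0 against 168.3 CPM, with a ratio of 2.14 (1.23 to 3.91). Pools 28 and 29 had ratios of 1.52 (0.969 to 2.41) and 0.690 (0.463 to 1.04). The 3 cells with 12 to 16 HMGIY2 UMIs, all of pool 6, had no CAB1. With all cells of at least 8 HMGIY2 UMIs left out, the log2 fold over all pools was 0.14 in place of -0.11.

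C2, the chalcone synthase gene that opens flavonoid synthesis, was seen in 77 cells. EZ1 stood at 34.2 CPM (16.4 to 63.0) in cells with C2 and at 86.6 CPM (62.9 to 116.2) in those without, a ratio of 0.395 (0.177 to 0.797) and a log2 fold of -1.13. It was lower in all 4 pools. The levels were 73.2 against 95.7, 28.9 against 111.9, 26.8 against 121.4 and 12.1 against 28.7 CPM in pools 6, 11, 28 and 29. They came from 5 against 12, 3 against 18, 1 against 10 and 1 against 4 UMIs. The interval of the ratio lay below 1 in pool 11 alone. Of all features, 3.5% were at least 2-fold higher and 1.92% at least 2-fold lower with C2. The log2 fold was -0.93 without the GAPC3 cells, -0.85 without pool 11, -0.99 without pool 28 and -0.48 after thinning to 1000 UMIs, all short of that limit.

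HMGIY2 stood at 462.3 CPM (387.6 to 547.1) in cells with C2 and at 450.7 CPM (394.2 to 513.0) in those without, a ratio of 1.03 (0.823 to 1.27). The level differed with the amount of C2. HMGIY2 was at 669.7 CPM (539.9 to 821.3) in the 38 cells with 1 C2 UMI and at 204.5 CPM in the 26 cells with 5 or more (131.002 to 304.2). Of the 92 HMGIY2 UMIs in the 38 cells, single cells held 12 and 9. Set against the cells with none, the cells with 5 or more had a log2 fold of -1.10. The share of cells with HMGIY2, averaged over all draws of 1000 UMIs, was 12.5% in those C2-rich cells and 30.5% in the cells with no C2.

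**Figure D3:**
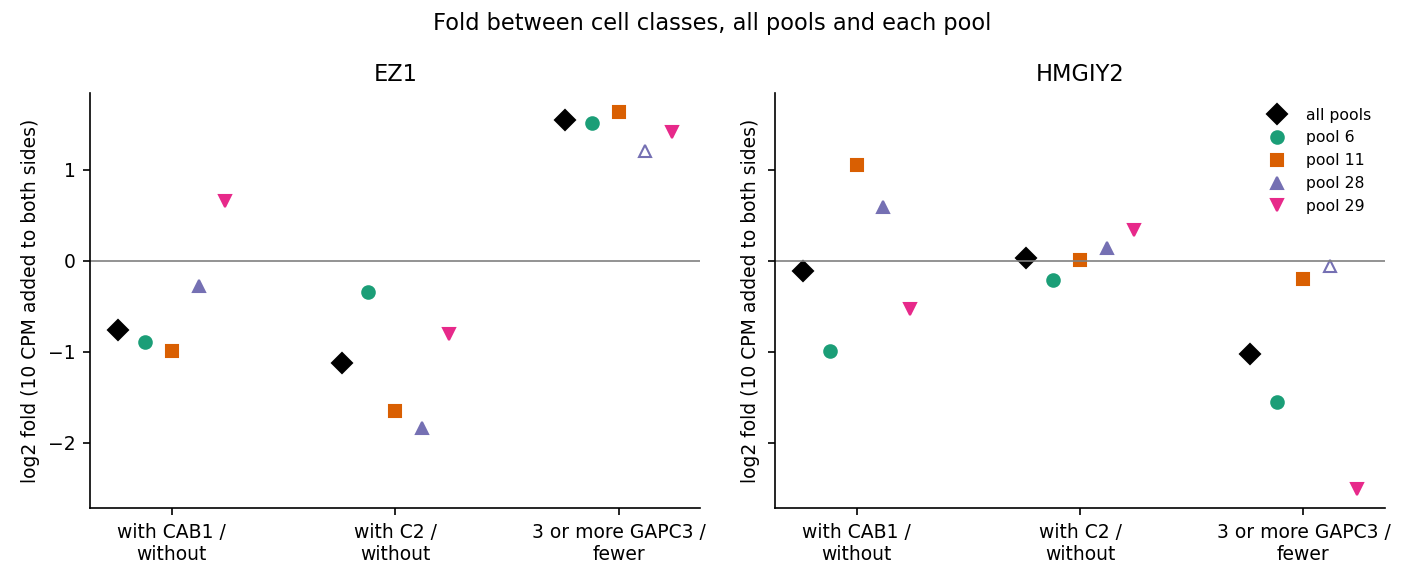
Log2 fold of EZ1 (left) and HMGIY2 (right) between cells with and cells without CAB1, C2 or at least 3 GAPC3 UMIs, over all pools (diamonds) and within each pool, with 10 CPM added to both sides; open symbols have fewer than 5 cells in a class. The folds of EZ1 with GAPC3 lie between 1.21 and 1.63 in the 4 pools, while those of HMGIY2 with CAB1 lie on both sides of 0.

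The 2 genes were counted together in few cells once depth was made equal. Without thinning, 19 cells had both, against 17.8 from the product of their shares, a ratio of 1.07, but cells with EZ1 were deeper, with a median of 3936 UMIs against 1546 in the cells without it. Thinned to 1000 UMIs each, the 71.3% of cells deep enough had EZ1 in 13 cells and HMGIY2 in 58 cells, with both in 1 cell against 3.49 from the product of the shares. HMGIY2 was then seen in 7.69% of the cells with EZ1 (0.195% to 36.0%) and in 28.1% of the others (22.0% to 34.8%), intervals that overlap. Averaged over all possible draws, both were seen in 2.38 cells against 4.05, a ratio of 0.589. The ratio was 0.508 at 500 UMIs and 0.769 at 2000 UMIs, computed the same way. At this depth a ratio of 1 lies within the counting error.

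By level, HMGIY2 stood at 307.0 CPM (230.7 to 400.6) in the cells with EZ1 and at 496.6 CPM (442.8 to 555.0) in those without, a ratio of 0.618 (0.454 to 0.828). Pool 6 had 288.1 CPM with EZ1 against 579.1 CPM without, pool 28 had 405.7 against 832.4 CPM and pool 29 had 291.4 against 501.7 CPM. Pool 11 showed next to no difference, with 284.8 against 287.6 CPM, and in pool 29 the interval of the ratio included 1. Seen from the other side, EZ1 stood at 51.9 CPM in cells with HMGIY2 and at 88.9 CPM in those without, with a ratio of 0.583 whose interval of 0.326 to 1.03 included 1. Among cells with under 3 GAPC3 UMIs, HMGIY2 was at 446.9 CPM (319.2 to 608.5) with EZ1 and at 519.1 CPM (460.5 to 583.1) without, a ratio of 0.861 (0.602 to 1.20). Among the 30 cells with at least 3 GAPC3 UMIs it was at 162.1 CPM with EZ1 and at 336.8 CPM without, a ratio of 0.481 (0.232 to 0.956). Over all pools neither gene reached the 2-fold limit when cells were split by the other, with log2 folds of -0.68 each. Within pools the lowest log2 folds were -1.02 for HMGIY2 by EZ1 and -1.09 for EZ1 by HMGIY2, both past it.

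**Figure D4:**
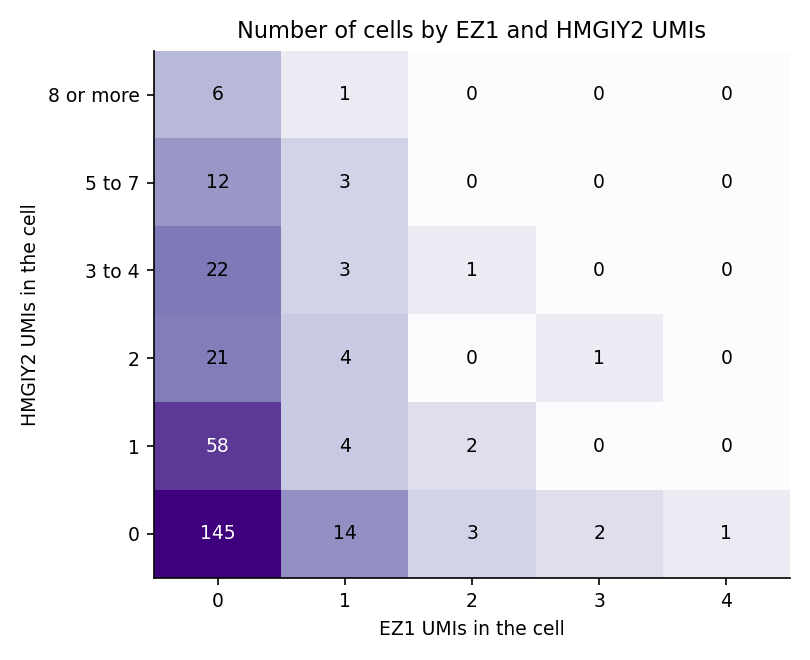
Number of cells for each combination of EZ1 UMIs (horizontal axis) and HMGIY2 UMIs (vertical axis) among all cells; darker squares hold more cells. Neither gene was counted in 47.9% of cells, and of the 4 cells with 3 or more EZ1 UMIs 3 had no HMGIY2 and 1 had 2 UMIs.

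Split by EZ1, the named features on the high side were a glycolytic gene, an aquaporin gene, both ADP/ATP carriers and a ribosomal protein gene. Only features with a symbol could be named, so features without one may have larger folds. By the rule for naming (the 5 symbol-bearing features with the largest fold in each direction, at least 50 UMIs and the same direction in all 4 pools), GAPC3 came first, at 1200 CPM in the 39 cells with EZ1 against 198.6 CPM in those without, which restates the relation above. SIP1-2, a small basic aquaporin, stood at 1035 against 410.1 CPM (log2 fold 1.31). ANT2 and ANT1, the mitochondrial ADP/ATP carriers, had log2 folds of 0.90 and 0.54, and RPS21, a ribosomal protein gene, one of 0.71. Of these GAPC3 and SIP1-2 passed the 2-fold limit, which 6.69% of all features passed upward. Split by at least 3 GAPC3 UMIs, SIP1-2, ANT2, RPS21 and ANT1 had log2 folds of 1.83, 1.27, 1.08 and 0.68. The part of the GAPC3 cells in the folds by EZ1 was not tested.

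On the low side of EZ1 stood C2, at 108.04 against 917.8 CPM (log2 fold -2.97), and NIP1-1, a nodulin-type aquaporin, at 45.5 against 209.8 CPM (log2 fold -1.99). The fold of C2 lay between -3.74 and -2.68 within pools but rested in part on few C2-rich cells. Single cells without EZ1 held 88, 64, 50, 42, 39 and 38 of the 573 C2 UMIs counted there. PPDK2, pyruvate orthophosphate dikinase, had a log2 fold of -1.83, ndhE of the plastid NADH dehydrogenase-like complex one of -1.44, and PSBQ1 of photosystem II one of -1.42. Split by at least 3 GAPC3 UMIs, the log2 folds were -2.48 for PPDK2 and -1.73 for PSBQ1. They were smaller for C2, ndhE and NIP1-1, at -0.73, -0.61 and -0.09. In the split by EZ1 the downward limit was passed by 10.3% of features. Among nuclear photosynthesis genes, all 4 with at least 50 UMIs (CAB1, RBCS, PSAH and PSBQ1) were at least 2-fold lower, and the 25 plastid-encoded genes had a median log2 fold of -0.62 with 5 past the limit, beside a median of 0.05 over all features.

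Split by HMGIY2, photosynthesis genes lay on the high side, but CAB1 had an r of 0.023 with HMGIY2 across cells, and the reverse split, above, gave HMGIY2 a log2 fold of -0.11 with CAB1. PSAH, a photosystem I subunit, stood at 179.4 CPM in cells with HMGIY2 against 44.5 CPM in cells without (log2 fold 1.80), and PSBQ1 at 371.7 against 112.6 CPM (log2 fold 1.64). RPL29, a ribosomal protein gene, had a log2 fold of 1.06, and the plastid-encoded psbH and ndhE reached 1.23 and 1.16. Upward, 3.25% of all features passed the 2-fold limit. The lowest within-pool folds of PSAH and PSBQ1 were 0.12 each, so the size was far from equal in the pools. All 4 nuclear photosynthesis genes were at least 2-fold higher over all pools, but CAB1 and RBCS were lower in at least 1 pool, with lowest within-pool log2 folds of -1.42 and -1.41. The 25 plastid-encoded genes had a median of 0.73, with 5 past the limit, beside -0.16 over all features.

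The named features lower with HMGIY2 were C2, at 330.6 against 1301 CPM (log2 fold -1.94), SIP1-2, at 345.7 against 824.0 CPM (log2 fold -1.23), the superoxide dismutase gene SODCC.2 (log2 fold -0.78), ANT2 (-0.77) and the ribosomal protein gene RPL17 (-0.69). The downward limit was passed by 3.53% of features. C2 and SIP1-2 passed it, and both were lower in every pool. SIP1-2 and ANT2 thus lay on the high side of EZ1 and on the low side of HMGIY2. C2 was lower with either gene, but the reverse split, above, gave HMGIY2 a log2 fold of 0.036 with C2. The ratio there was 1.03 (0.823 to 1.27). The fold of C2 by HMGIY2 rested in part on few C2-rich cells. Single cells without HMGIY2 held 88, 64, 42, 39 and 38 of the 439 C2 UMIs counted there. A single cell with HMGIY2 held 50. The cells without a member serve as the comparison in both splits and overlap, so the 2 sets of values are not independent. A cell with HMGIY2 had a median depth of 2785 UMIs against 1459 UMIs without, and the part of depth in these folds was not tested.

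The chromatin list, matched by symbol, found 4 features, EZ1, HMGIY2, FIE2 and DMT105. Chromatin genes counted under an identifier alone could not be found this way. FIE2 had 9 UMIs in 9 cells, at 11.2 CPM, of which 1 UMI lay in a cell with EZ1 and 7 in cells with HMGIY2. DMT105, a DNA methyltransferase gene, had 47 UMIs in 30 cells. It stood at 82.1 CPM in cells with HMGIY2 and 26.7 CPM in cells without, a ratio of 3.08 (1.46 to 7.24), and at 79.6 CPM in cells with EZ1 against 52.9 CPM in cells without, a ratio of 1.51 (0.745 to 2.89). With the GAPC3 limit of 3 UMIs DMT105 stood at 55.0 against 59.7 CPM.

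A further list, drawn up after the symbols of the table had been seen, held MNB1B, PARP1 and the single-Myb-histone genes SMH1 to SMH5. MNB1B, an HMG-box DNA-binding protein gene, was the most abundant symbol of both lists, with 1707 UMIs in 86.5% of cells at 2133 CPM. MNB1B stood at 2310 CPM in cells with HMGIY2 and 1891 CPM in cells without, a ratio of 1.22 (1.11 to 1.35), and at 2058 against 2154 CPM in cells with and without EZ1, a ratio of 0.955 (0.848 to 1.07). PARP1, a poly(ADP-ribose) polymerase gene, had 48 UMIs, with a ratio of 1.77 (0.926 to 3.57) by HMGIY2 and of 0.606 (0.229 to 1.36) by EZ1. The SMH genes had 5 to 22 UMIs each, and the intervals of all their ratios included 1.

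Cell division genes gave a mixed picture. MAD2, of the spindle checkpoint, had 23 UMIs in 11 cells, 15 of them in pool 6. Of these UMIs 20 lay in cells with HMGIY2, at 43.2 against 8.89 CPM, a ratio of 4.86 (1.44 to 25.5). CDC2, a cyclin-dependent kinase gene, had 17 UMIs and none in a cell with EZ1, beside 27.2 CPM in the cells without EZ1, and the interval of that ratio reached up to 0.860. PCNA had 5 UMIs and RBR3, of the retinoblastoma family, 7, too few to read. The 4 alpha-tubulin genes with at least 50 UMIs (TUBA1, TUBA3, TUBA5 and TUBA6) had log2 folds from -0.65 to 0.25 by EZ1 and from -0.30 to 0.27 by HMGIY2, and none passed the 2-fold limit.

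Likeness across cells was measured as Pearson's r of log2(1 + UMIs per 1000), with pool means taken out, over the cells with at least 1000 UMIs, which share their pools and differ in depth. EZ1 and HMGIY2 had an r of -0.13 with each other. For EZ1 the most alike of 1286 features with at least 100 UMIs were Zm00001d018509 (r = 0.42) and Zm00001d035007 (r = 0.38), neither of which has a symbol in the table. Both were higher in the cells with at least 3 GAPC3 UMIs, with log2 folds of 2.35 and 3.02. The most alike symbols were SIP1-2 (0.28), ANT2 (0.22), GAPC3 (0.20), TUBA3 (0.19) and ANT1 (0.18), all weak. After thinning to 1000 UMIs the r of SIP1-2 was 0.061 and TUBA3 came first. The least alike were the plastid-encoded rpoA (-0.22), rpl14 (-0.22) and psbB (-0.19). Within pools, r with Zm00001d018509 ran from 0.09 to 0.66.

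For HMGIY2 the most alike features were Zm00001d021300 (r = 0.52) and Zm00001d050368 (r = 0.51). They held in every pool, from 0.47 to 0.62 and from 0.41 to 0.63, and without the 2 cells farthest from the median the values were 0.41 and 0.43. Among symbols MNB1B came first (0.30, and 0.18 to 0.42 within pools), but its r was 0.176 with Spearman's method, where PSBQ1 came first, and 0.175 after thinning, where PIP2-1 did. MNB1B ranked 25 among all 1285 features compared. It was followed among symbols by TUBA3 (0.24), the aquaporins PIP2-1 and PIP2-2 (0.21 and 0.18) and PSBQ1 (0.15). The least alike were SIP1-2 (-0.27), SODCC.2 (-0.20) and ALS1, an acetolactate synthase gene (-0.18). Over all features compared the median r was 0.02 for EZ1 and -0.01 for HMGIY2, and 21 and 24 features exceeded 0.3. Most of these values are weak for counts this sparse and are given as description.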

How the data were processed

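UMI counts per feature and cell were deposited by the authors as 1 table of raw whole numbers; the labels' protocols name modified CEL-Seq2 libraries. HISAT2 and B73 RefGen_v4 are named in the submitters' processing notes. Not given in the sources used here are the annotation, the UMI counter, any filter on cells, and how strand and reads shared by related genes were handled, so the counts of EZ1 and HMGIY2 may include or miss reads of close relatives. HMGIY2 was found as a synonym in the gene table (assembly Zm-B73-REFERENCE-NAM-5.0), which differs from the build used, and no coordinate is given.

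Cells were grouped by pool from their titles. All 303 cells were used, with no doublet caller. UMIs were summed over cells and scaled to CPM. A fold is the log2 ratio of 2 CPM values after adding 10 CPM to each, which understates low genes; it was computed for features with at least 50 UMIs and checked on simulated counts. Alternatives changed the minimum of UMIs, the added CPM, the total, the class limits, the cells and the pools. Cells were thinned to 1000 UMIs by a seeded draw and by the exact mean over all draws, leaving out 87 shallower cells. Named genes are the 5 highest and 5 lowest symbols by fold with 1 direction in all 4 pools, the 5 most and 3 least alike symbols, the 2 most alike features and the members of the lists, except those said to be chosen later. Members and lists were chosen with earlier results of these data known. Python 3.11.15, numpy 2.4.6 and scipy 1.17.1 were used.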

Additional observations from a re-analysis of the deposited data

How the results depend on the processing

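The log2 fold of EZ1 in cells with at least 3 GAPC3 UMIs kept its direction under every alternative tried, and the depth of EZ1, 54 UMIs, limits every statement on it. The class limits of 6 GAPC3, 10 CAB1 and 5 C2 UMIs and the omissions of GAPC3 or HMGIY2-rich cells were chosen after seeing the data. Of the alternative values, 23.6% moved beyond counting error or, for counts of features, by over 1.5 times, and no log2 fold of EZ1 or HMGIY2 past 2-fold changed direction. The co-detection ratio of 0.286, from the seeded draw, was 1.08 in pool 11 alone in that draw and 1.07 with no thinning. Averaged over all draws, pool 11 had a ratio of 0.477. The causes were not tested.

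Thinning to 1000 UMIs before classing gave log2 folds for EZ1 of -3.52 with CAB1 and 2.93 with GAPC3, and for HMGIY2 of -0.013 with GAPC3. The thinned draw held 15 EZ1 UMIs in all, so its EZ1 folds rest on few counts. Averaged over all draws, with cells classed before thinning, EZ1 was seen in 5.22% of cells with CAB1 and 7.56% without. With at least 3 GAPC3 UMIs it was seen in 14.1% of cells, and in 5.18% of the others. HMGIY2, taken the same way, was seen in 19.9% of the cells with at least 3 GAPC3 UMIs and 30.8% of the others. For EZ1 with CAB1 the log2 fold was 0.66 in pool 29 and -1.74 for at least 10 UMIs over none. For HMGIY2 with CAB1 it was -0.99, 1.05, 0.59 and -0.52 in pools 6, 11, 28 and 29. For HMGIY2 with C2 it was -0.82 at a limit of 2 UMIs and -1.10 for at least 5 over none. For HMGIY2 with GAPC3 it was -0.19 in pool 11, -2.51 in pool 29, -1.81 at a limit of 5 and -2.10 at a limit of 6.

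The mean over cells was 48.1 CPM for EZ1, 579.1 CPM for HMGIY2 and 587.2 CPM for HMGIY2 in pool 29. HMGIY2 stood at 538.0 CPM without pool 11, 407.1 CPM without pool 28 and 364.5 CPM without the cells with at least 8 UMIs, which also brought pool 6 to 287.4 CPM. With the 20 most abundant features out of the total it was 547.5 CPM over all cells, 610.8 CPM in pool 6 and 371.5 CPM in pool 11, and 623.5 CPM in pool 29 with barcodes 49 to 96 alone. In the seeded draw the co-detection ratio was 0 in pools 6, 28 and 29 alone and without pool 11, where no thinned cell had both genes. Averaged over all draws it was 0.650, 0.477, 0.917 and 0.237 in pools 6, 11, 28 and 29.

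Of the 5 symbols most like EZ1, 3 remained after thinning, and of those most like HMGIY2, 3 remained with Spearman and 3 without pool 29. The number of features past 2-fold moved by over 1.5 times with the minimum of UMIs, which also set how many features were compared. The percents moved as well. As percents of the 17139 features without a minimum, 5.11% were higher and 5.86% lower with CAB1, 3.97% and 3.16% with C2, 7.37% and 12.4% with GAPC3, 5.69% and 10.4% with EZ1, and 3.82% and 3.59% with HMGIY2. At a minimum of 100 UMIs the percents were 11.1% and 3.19% with CAB1, 4.12% and 1.63% with C2, 11.8% and 13.4% with GAPC3, 7.31% and 12.7% with EZ1, and 5.29% and 4.05% with HMGIY2. With the 20 most abundant features out of the total, 2.65% were lower with CAB1.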
